A study of Homo sapiens with 10 samples.

Results

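The aminoacyl-tRNA synthetases are the enzymes that attach each amino acid to its tRNA. Their genes were taken by name from the deposited tables of NB4 cells, as protein-coding genes whose symbol is a single letter followed by ARS, alone or with a digit, together with EPRS, FARSA and FARSB. This gave 37 of the 60603 genes listed. The naming rule uses no measured value, although the set was chosen with earlier results of these data known. By where the enzyme works, 20 are cytosolic and 17 mitochondrial, the latter marked by a symbol that ends in 2. GARS and KARS, which serve both compartments from a single gene, were counted as cytosolic.

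NB4 is a cell line from acute promyelocytic leukemia. In the GSE1 knockdown experiment, lentivirus brought in either pLKO.1 puro without an insert (EV) or a version of it coding for the hairpin shA1 or shB2 against GSE1, a chromatin protein that binds LSD1, and RNA was taken after 48 h. In the LSD1 inhibition experiment, cells received DMSO or 2 µM of the LSD1 inhibitor MC2580 and RNA was taken after 24 h. Each of the 5 conditions has 2 libraries, 6 libraries in the first experiment and 4 in the second, all from the same line. The titles of the treated libraries spell the compound MC280 and their treatment field MC2580.

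The values used are base means, the authors' average over all libraries of an experiment of read counts divided by size factors. The table of the knockdown experiment lists a base mean for each hairpin's comparison, and these were the same for all 60603 genes, which is what a single fit over both hairpins and EV gives. There is thus 1 base mean per gene and experiment, so it pools treated with control libraries, has no error and gives no depth per library. What the hairpins or MC2580 changed in the synthetases was therefore not analysed here, and every difference below is a description with no test. GSE1 itself had a base mean of 2963 in the knockdown experiment and 4441 in the LSD1 inhibition experiment, and KDM1A, which encodes LSD1, 7648 and 6285. Whether the hairpins lowered GSE1 cannot be read from a value that pools them with EV.

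The promyelocyte identity of the cells was checked against 5 granule genes. MPO, the myeloperoxidase of primary granules, had base means of 506765 and 824818 in the knockdown and the LSD1 inhibition experiments. CTSG, PRTN3 and AZU1 lay between 723 and 6435 over both. ELANE, neutrophil elastase and a defining gene of the same granules, was close to 0, at 1.10 and 3.87. Among genes of other blood cells, CD3E was at 1.55 and 2.98 and HBB at 11.7 and 0, while PPBP was listed at 0 in both.

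A synthetase recognises an amino acid and the matching tRNA, joins them at the cost of ATP, and so sets the accuracy with which the genetic code is read. Cytosolic enzymes serve the ribosomes that make most proteins of a cell, whereas mitochondria use their own set, encoded in the nucleus and imported, for the few proteins encoded by mitochondrial DNA. Many cytosolic synthetase genes are known targets of ATF4, a transcription factor that rises when amino acids run short and binds C/EBP-ATF response elements (CARE) near their start sites.

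In both experiments all 37 synthetases reached a base mean of 50, the minimum set for the genes compared here, and 36 reached 500. Base means ran from 454 for PARS2 to 16043 for FARSA in the knockdown experiment and from 486 for PARS2 to 23369 for FARSA in the LSD1 inhibition experiment. The 37 genes are 0.213% of the protein-coding genes not at 0 in the knockdown experiment and 0.216% in the LSD1 inhibition experiment. Together they held 0.537% of the summed base means in the first and 0.507% in the second. These sums run over all genes listed, coding or not, so the shares of genes and of base means have different denominators. Levels of different genes were then compared per kilobase of the MANE Select transcript, the reference transcript chosen for each gene, and are called levels per kb from here on. On this scale, 33 of the 37 synthetases in the knockdown experiment and 34 in the LSD1 inhibition experiment were above the median of 10668 protein-coding genes that reached the minimum in both and had such a length, which was 423 and 379.9 per kb.

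The highest levels belonged to cytosolic enzymes. In the knockdown experiment FARSA, the catalytic subunit of phenylalanyl-tRNA synthetase, stood first at 8859 per kb. KARS, the lysine enzyme, followed at 6449 and GARS, the glycine enzyme, at 6126. MARS, which charges both initiator and elongator tRNA with methionine, was at 5118 and YARS, the tyrosine enzyme, at 5075. The same 5 genes led in the LSD1 inhibition experiment, where FARSA reached 12904 per kb, KARS 6977, YARS 5129, GARS 5065 and MARS 4979. MARS and YARS were 5118 and 5075 per kb in the first experiment and in the other order in the second, and nothing measured separates them.

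The lowest levels belonged to mitochondrial enzymes. WARS2, for tryptophan, was at 188 per kb in the knockdown experiment and PARS2, for proline, at 193. EARS2, for glutamate, was at 279, SARS2, for serine, at 333 and FARS2, for phenylalanine, at 435. These 5 were also the lowest in the LSD1 inhibition experiment, with WARS2 at 201, PARS2 at 206, EARS2 at 286, SARS2 at 417 and FARS2 at 458 per kb. From WARS2 to FARSA the levels spanned 47.2-fold in the knockdown experiment and 64.3-fold in the LSD1 inhibition experiment.

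Between the compartments, the median level per kb of the cytosolic synthetases was 3117 in the knockdown experiment against 598 for the mitochondrial ones, 5.21-fold higher, and 2591 against 635 in the LSD1 inhibition experiment, 4.08-fold higher. The ranges overlapped. In the knockdown experiment 5 cytosolic genes, among them FARSB at 535 and CARS at 893 per kb, lay below IARS2, the highest mitochondrial gene, at 1899. The cytosolic genes held 84.7% of the summed base means of the 37 in the knockdown experiment and 84.5% in the LSD1 inhibition experiment.

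For 14 amino acids the cytosolic and the mitochondrial enzyme are each a single gene of their own, and in 13 of these pairs the cytosolic gene was higher per kb in both experiments. The median of the 14 was 3.97-fold in each experiment. The tally and its exceptions depend on the length used: per kb of all exons merged, a length that takes in every annotated exon, 12 of the 14 cytosolic genes were higher in the knockdown experiment, with HARS and IARS the exceptions, and 11 in the LSD1 inhibition experiment, with CARS added. The widest gap per kb of the 14 was between WARS, the cytosolic tryptophan enzyme and a known interferon-induced gene, and WARS2. In the knockdown experiment WARS was at 3429 per kb and WARS2 at 188 per kb, or 18.3-fold, which became 10.4-fold with merged exons. The widest gap with merged exons was between NARS, the asparagine enzyme, and NARS2, at 17.0-fold in the knockdown and 12.2-fold in the LSD1 inhibition experiment. In the LSD1 inhibition experiment WARS was at 3055 and WARS2 at 201 per kb, or 15.2-fold.

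A group of 4 further pairs lay between 6- and 9-fold in the knockdown experiment. MARS was 8.55-fold above MARS2, and AARS, the alanine enzyme, 8.37-fold above AARS2. YARS was 6.92-fold above YARS2, and SARS, the serine enzyme, 6.79-fold above SARS2. In the LSD1 inhibition experiment the same pairs differed by 7.59-fold for methionine, 6.94-fold for alanine, 7.14-fold for tyrosine and 4.55-fold for serine. The serine pair moved most of the 4, with SARS at 2260 and 1898 per kb and SARS2 at 333 and 417. With merged exons, the knockdown ratios were 3.40 for methionine, 3.07 for alanine, 1.75 for tyrosine and 5.43 for serine.

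The middle of the order was held by 4 pairs near 4-fold. HARS, the histidine enzyme, was 4.08-fold above HARS2 in the knockdown experiment, but at 0.85 of it with merged exons, and TARS, the threonine enzyme, 4.00-fold above TARS2. LARS, the leucine enzyme, was 3.93-fold above LARS2, and NARS, the asparagine enzyme, 3.86-fold above NARS2. In the LSD1 inhibition experiment these ratios were 4.05 for histidine, 3.19 for threonine, 4.07 for leucine and 2.77 for asparagine. VARS, for valine, exceeded VARS2 by 2.98- and 2.29-fold in the knockdown and LSD1 inhibition experiments, and RARS, for arginine, exceeded RARS2 by 2.05- and 2.09-fold. With merged exons, the knockdown ratios were 3.70 for threonine, 2.35 for leucine, 17.0 for asparagine, 3.77 for valine and 10.0 for arginine. The order of the pairs thus depends on the length used.

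Isoleucine and cysteine differed from this order. IARS and IARS2 were at nearly the same level, 2039 and 1899 per kb in the knockdown experiment and 1602 and 1597 per kb in the LSD1 inhibition experiment. With the longest protein-coding transcript of each gene, IARS was at 1.03 of IARS2 in the knockdown experiment. With merged exons, IARS was at 408 and IARS2 at 1621 per kb in that experiment, so near equality does not hold on that length. CARS, the cytosolic cysteine enzyme, was below its mitochondrial counterpart CARS2 in both experiments, at 893 against 1115 per kb and 711 against 1385 per kb. By base mean without division by length, CARS was 1.19-fold above CARS2 in the knockdown experiment and 0.764 of it in the LSD1 inhibition experiment, and with merged exons 1.24-fold above it and 0.795 of it, so the order of this pair in the knockdown experiment depends on the length used.

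Some enzymes do not form such pairs. EPRS joins a glutamate and a proline synthetase in a single polypeptide and was at 1941 and 1368 per kb in the knockdown and LSD1 inhibition experiments, 6.96- and 4.78-fold above EARS2 and 10.1- and 6.63-fold above PARS2. QARS, the cytosolic glutamine enzyme, was at 4215 and 4555 per kb and has no mitochondrial counterpart, since mitochondria charge the glutamine tRNA with glutamate by EARS2 and then convert it by an amidotransferase. The genes of that amidotransferase were at 759 per kb for GATB, 589 for GATC and 376 for QRSL1 in the knockdown experiment, all above the 279 per kb of EARS2.

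Phenylalanyl-tRNA synthetase of the cytosol is a tetramer with equal numbers of the subunits that FARSA and FARSB encode, and the mRNA levels of the subunits were far apart. FARSA had a base mean of 16043 in the knockdown experiment and FARSB 3614, a 4.44-fold difference. In the LSD1 inhibition experiment they were at 23369 and 5155, or 4.53-fold. Per kb the gap was 16.6-fold and 16.9-fold, because the MANE Select transcript is 1811 bases long for FARSA and 6761 for FARSB, and with all exons of each gene merged it was 12.3-fold in the knockdown experiment. The mitochondrial enzyme, a monomer from FARS2, was at 435 and 458 per kb in the knockdown and LSD1 inhibition experiments, below FARSB at 535 and 762.

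Of the cytosolic enzymes, 8 are held in the multi-synthetase complex (EPRS, IARS, LARS, MARS, QARS, RARS, KARS and DARS). Their levels per kb in the knockdown experiment ran from 1773 for RARS to 6449 for KARS, with a median of 2147. The 12 outside the complex ran from 535 for FARSB to 8859 for FARSA, with a median of 3424. Without division by length the order was reversed, with a median base mean of 9880 in the complex and 8412 outside it. In the LSD1 inhibition experiment these median base means were 8173 and 7020. The scaffold proteins of the complex are encoded by AIMP1, at 863 per kb, AIMP2, at 2926, and EEF1E1, at 1329. By catalytic fold, class I enzymes had a median of 1213 per kb and class II enzymes of 1436, 18 genes each with EPRS in neither. The LSD1 inhibition experiment gave 1419 and 1381, in the other order.

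The 250 bases before and 50 bases after the RefSeq start site were at hand for 30 of the 37 synthetases (GRCh38.p14), and not for others, among them DARS, AARS2, LARS, YARS, VARS2 and VARS. They were searched on both strands for 7 short motifs, which were chosen after the base means had been seen. The CARE letters TGATGNAA were in 7 of the 30 windows, or 23.3%, against 2.54% of the windows of 15325 protein-coding genes. Those 15325 genes were taken at any base mean, whereas all synthetases reached the minimum, and shares among genes of like level were not computed. Of these 7, 6 were among the 16 cytosolic genes and 1 among the 14 mitochondrial genes. The following 30-base stretches are shown because they hold these letters; they read 5′ to 3′ on the gene's strand, with the match, or its reverse complement, in capitals.
AARS (chr16:70289675-70289704, minus strand): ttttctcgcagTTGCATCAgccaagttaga
CARS (chr11:3057407-3057436, minus strand): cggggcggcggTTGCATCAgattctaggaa
IARS (chr9:92293692-92293721, minus strand): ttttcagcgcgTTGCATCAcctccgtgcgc
MARS (chr12:57488053-57488082, plus strand): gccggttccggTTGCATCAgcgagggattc
NARS (chr18:57621804-57621833, minus strand): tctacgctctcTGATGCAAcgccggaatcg
TARS (chr5:33440956-33440985, plus strand): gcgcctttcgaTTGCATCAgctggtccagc
YARS2 (chr12:32756076-32756105, minus strand): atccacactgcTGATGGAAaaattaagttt

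The 6 cytosolic genes carried the same 8 letters, TGATGCAA or their reverse complement, which 0.679% of all windows held, and YARS2 carried TGATGGAA. In CARS, MARS, IARS, TARS and NARS the match began within 14 bases of the start site, from 13 bases before it in IARS to 14 bases after it in NARS. In AARS it began 187 bases before the start and in YARS2 197 bases before. A match shows only that the letters are there. Levels per kb in the knockdown experiment had a median of 3401 for the 6 cytosolic genes with the letters and 3424 for the 10 without, with ranges of 893 to 5118 and of 535 to 8859 that overlap.

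The other 6 motifs gave the following shares, beside those of the same 15325 windows of genes at any base mean. The ETS core CCGGAAG was in 14 of 30 windows (46.7%, against 14.4% of all windows), in 8 of 16 cytosolic and 6 of 14 mitochondrial genes, and HARS and HARS2, which are transcribed away from each other, read the same 2 matches from opposite strands. CCAAT was in 16 (53.3%, against 36.6%) and the E-box CACGTG in 4 (13.3%, against 8.87%). The NRF1 motif GCGCATGCG was in MARS2 alone (3.33%, against 2.73%), and the TATA letters TATAAA in GARS alone (3.33%, against 9.60%). The full cAMP response element TGACGTCA was in 0 windows, against 2.65% of all.

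The experiments were then set side by side as the log2 ratio of base means, LSD1 inhibition over knockdown, which is positive where the gene was higher in the LSD1 inhibition experiment. Transduction, time after treatment, the treatments themselves and separate normalization cannot be told apart in this ratio. Of the 37 synthetases, 16 were higher and 21 lower in the LSD1 inhibition experiment, with a median of -0.04. Over the 10916 protein-coding genes that reached the minimum in both, 43.6% were higher and the median was -0.07. Centred on that median, 19 synthetases were higher and 18 lower, so the balance of directions depends on the scaling. The middle 50% of the synthetases lay between -0.25 and 0.11, and that of all these genes between -0.36 and 0.22. As deposited, a ratio past 1.5-fold was found for 0 synthetases and for 18.9% of all these genes. Centred, it was found for 2 of the 37 synthetases, FARSA at 0.61 and VARS2 at 0.60, and for 2020 of the 10916 genes.

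The largest ratios were those of both cytosolic phenylalanine subunits and of VARS2. FARSA had base means of 16043 in the knockdown experiment and 23369 in the LSD1 inhibition experiment, a log2 ratio of 0.54. VARS2, the mitochondrial valine enzyme, had base means of 1570.3 and 2270.4 in these experiments, a log2 ratio of 0.53, and FARSB of 3614 and 5155, a log2 ratio of 0.51. These ratios were above those of 91.5% to 92.6% of the protein-coding genes.

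At the other end stood EPRS, with base means of 9437 in the knockdown experiment and 6649 in the LSD1 inhibition experiment and a log2 ratio of -0.51. TARS had 10654 and 8015, a log2 ratio of -0.41. These ratios were above those of only 16.2% of the protein-coding genes for EPRS and 21.6% for TARS. Division by the sum of base means subtracts 0.02 from every log2 ratio, and centring subtracts -0.07. These amounts are too small to turn the direction of FARSA, VARS2, FARSB, EPRS or TARS, so the other scalings are no check on it.

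By compartment, the median log2 ratio was -0.19 for the cytosolic genes, 6 higher and 14 lower in the LSD1 inhibition experiment, and 0.04 for the mitochondrial genes, 10 higher and 7 lower. Centred, these medians were -0.12 and 0.11, with 8 and 11 genes higher. Of all 10916 protein-coding genes compared, 4764 were higher and 6152 lower as deposited, and 5458 were higher when centred. The 6 cytosolic genes with the CARE letters were all lower in the LSD1 inhibition experiment, from -0.41 for TARS to -0.04 for MARS, with a median of -0.34, although MARS turned to 0.03 when centred. The 10 cytosolic genes with a promoter window but without the letters ran from -0.51 for EPRS to 0.54 for FARSA, 6 lower and 4 higher, with a median of -0.16, so the range of the first group lies within that of the second. Whether the letters go with the ratio was not tested. Members of the complex had a median of -0.13, with KARS and QARS higher, both at 0.11, and the other 6 lower; centred, 4 were higher and 4 lower.

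In order of level the experiments were alike. Over the 37 genes the log2 base means had a Pearson correlation of 0.98 between experiments, and over the 10916 protein-coding genes it was 0.97; both are descriptions over genes of the same cell line, which share length and base composition.

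The companions of the synthetases, 16 genes for complex scaffolds, tRNA maturation, the editing or conversion of charged tRNA and its delivery to the ribosome, all reached the minimum in both experiments. Of these, 11 were higher and 5 lower in the LSD1 inhibition experiment, with a median log2 ratio of 0.13. Over the 10916 protein-coding genes, 43.6% were higher, with a median of -0.07. After division by the sum of base means 10 companions were higher, beside 4515 of the 10916 genes. Centred, 12 companions were higher, beside 5458 of the 10916 genes. TUFM, which carries charged tRNA to the mitochondrial ribosome, had base means of 16108 and 21867 in the knockdown and LSD1 inhibition experiments, a log2 ratio of 0.44. EEF1A1, the cytosolic factor with that task, had 312553 and 294081, a log2 ratio of -0.09. AARSD1, an editing protein that clears mischarged alanine tRNA, had the highest ratio of the list at 0.47 and PSTK, which acts in the making of selenocysteine tRNA, the lowest at -0.33. TARSL2, a cytosolic relative of TARS that the naming rule leaves out, had base means of 986 and 749.

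For 12 of the 37 synthetases, exons overlap those of another gene that reached the minimum in both experiments. The library kit does not mark strand, so reads from such a stretch cannot be assigned by strand. The authors quantified genes with RSEM, and the values given here were not corrected for these overlaps. Summed over the overlapping genes, the shared bases were 12.4% of the exon bases of MARS, where ARHGAP9 shares 519 bases and DDIT3, which encodes the stress factor CHOP, 355 bases. They were 8.46% for HARS, where WDR55 on the opposite strand shares 1090 bases, and less for each other synthetase. HARS and HARS2 share 108 bases, 2.90% of the exon bases of HARS2.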

How the data were processed

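mRNA-seq libraries of NB4 cells were prepared by the authors with Illumina's TruSeq RNA v2 chemistry, mapped to hg38 with STAR, quantified with RSEM and compared in DESeq2. The submitters' processing notes name STAR 2.7 and FastQC 0.11.5; the annotation release is not given in the sources used here. The deposited signal is the DESeq2 base mean that the authors computed, an average over the 6 or 4 libraries of an experiment of estimated counts divided by size factors. That the knockdown base mean covers all 6 libraries was taken from its being the same for both hairpins, not from a statement in the table. The deposited tables also hold the authors' own comparisons (log2 fold changes, standard errors, Wald statistics, p-values and adjusted p-values), which were not used. As a base mean has no value per library, the planned count test was not run, no depth, interval or replicate error can be given, and the targeted gene was not checked per library.

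The synthetases and the lists were chosen with earlier results of these data known. Gene identifiers were matched to GENCODE 44 on GRCh38 (60261 of 60603, with all 37 synthetases). Symbols are those of the tables, and 18 synthetases have a newer name there. Base means were divided by the length of the MANE Select transcript in kilobases. Named in full were the 5 highest and 5 lowest levels per kb in the knockdown experiment, the 3 largest ratios between experiments each way, both genes of each cytosolic and mitochondrial pair, the companion list, GSE1 and KDM1A; 1 synthetase that this rule names enters the counts and medians but is not reported here. The motif search, with 1 window per symbol, the exon overlaps, TARSL2, the split by CARE letters, the pairs under other lengths and the limits for a changed result (0.1 on the log2 ratio, 1.5-fold on levels) were added after the tables had been seen. Calculations used Python 3.11.15, pandas 2.3.3 and numpy 2.4.6.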

Additional observations from a re-analysis of the deposited data

How the results depend on the processing

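The 37 synthetases have 1 base mean per experiment, so neither error nor depth is known, and the edgeR and DESeq2 tests, the low-count filter of such a test and the omission of single replicates that had been planned were not run. No paired analysis was possible because the columns used carry no replicate. The median log2 ratio between the experiments ranged from -0.06 to 0.03 over the alternatives: it was -0.04 as reported, -0.06 after division by the sum of base means or with a minimum base mean of 500, and 0.03 after centring on all protein-coding genes, so its sign depends on the scaling. The difference between the median levels of cytosolic and mitochondrial genes, 2.38 on the log2 scale, ranged from 2.08 without GARS and KARS to 2.49 with merged exons. With the merged exon length, 3 of the 5 highest genes per kb stayed among the 5 highest (FARSA, KARS and MARS), with TARS and QARS in place of GARS and YARS; all 5 stayed with the longest protein-coding transcript or in the other experiment. Of the 5 lowest genes in the knockdown experiment, EARS2 and SARS2 gave way to RARS2 and NARS2 with merged exons and FARS2 to LARS2 with the longest transcript. The cytosolic gene was higher in 12 to 14 of the 14 pairs in that experiment over these lengths and without division by length, an alternative added after the data were seen.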
